A study of Mus musculus with 30 samples.

Results

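Toll-like receptors are sensors of microbial and damage-derived molecules, and the genes followed here are Tlr1 to Tlr9 together with Myd88, the adaptor that most of these receptors share. They were found by their symbol in a table of gene levels in FPKM, a unit that scales the fragments of a gene by its length and by the size of the library, for sorted cells of mouse prefrontal cortex. All 10 were present, of 23993 genes in all. Each stood once in the table, so no value had to be merged.

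The libraries were made from tdTomato-tagged cells sorted from the medial prefrontal cortex (mPFC) of mice heterozygous, per the study's methods, for Sst tdT or Pvalb tdT, which join the Sst or Pvalb Cre driver with the Cre-dependent Ai9 reporter. Every group shared the reporter, and the mice were adult (6 to 12 weeks in the study's methods). A shared C57BL/6 background is taken here, though the methods name C57BL/6 only for wild-type mice of the behavioural work. The 24 libraries came from unstressed Sst females (7), unstressed Sst males (7), Sst males after 14 days of chronic unpredictable stress (CUS; 3) and unstressed Pvalb males (7), and 6 further libraries in the labels, from females, were not analysed here. Cre drivers tag every cell that has ever expressed the driver, and nothing in the labels says whether 1 library held 1 animal or several, so p-values measure only the spread between these samples, which may be technical.

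SST0-M and SST1-M were nearly identical, as were PV0-M and PV2-M (SD of the log2 ratio over genes, 0.0212 and 0.0170, against 0.267 and 0.225 for the next closest pair of their condition). Each pair was averaged and counted as 1 sample, which left 22. The unstressed Sst males fell into 3 samples with numbered titles (the averaged SST0-M/SST1-M, then SST3-M, then SST4-M) and 3 with longer titles (SS04031R, SST040241L and SST04241LL). The numbered ones were not alike. SST0-M and SST1-M differed from SST3-M and SST4-M by an SD of 1.00 to 1.01, against 0.444 between SST3-M and SST4-M. From the 3 males with longer titles, SST3-M and SST4-M differed by 0.861 to 0.961. All 3 CUS libraries carried the longer kind of title (SS04031LL, SS04031RL and SS04031RR). What the longer titles stand for is not given in the labels, and they are called long-title libraries. Comparison with CUS was therefore made within them. The libraries PV1-M, PV4-M and PV5-M, labelled male, held Xist at 300.2 to 333 FPKM, whereas the other Pvalb samples held 0.442 to 6.64. Sst females held 479 to 644 FPKM and Sst males at most 0.356 FPKM, so the sex of these 3 libraries is uncertain. The group is called Pvalb males after its label.

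The receptors divide by where they meet their ligands. At the cell surface, TLR2 pairs with TLR1 or TLR6 to sense bacterial lipopeptides, TLR4 senses lipopolysaccharide with its co-receptors MD-2 (gene Ly96) and CD14, and TLR5 senses flagellin. In endosomes, TLR3 senses double-stranded RNA, TLR7 and TLR8 single-stranded RNA, and TLR9 unmethylated CpG DNA. All signal through MYD88 except TLR3, which uses TRIF (gene Ticam1), and TLR4 uses both adaptors. In the brain these genes are known mainly from microglia, the resident macrophages.

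The sorted cells were labelled interneurons, and their defining transcripts were checked first. Sst ranged from 0.238 to 49.3 FPKM in the Sst samples outside the long-title series (highest in SST-F) and from 0 to 5.54 FPKM in the long-title ones, and it stood at 12.5 to 30.5 FPKM in the Pvalb samples. Pvalb did not exceed 5.07 FPKM in any sample. The 13 microglia markers summed to 2967 to 10285 FPKM per sample, and the 10 interneuron markers to 3.20 to 70.4 FPKM. Markers of other immune cells were low: monocyte markers summed to at most 6.00 FPKM, neutrophil markers to 17.9, B cell markers to 9.44, and T and NK cell markers to 2.47 FPKM, with Cd3e, Cd3g, Nkg7 and Gzma all at 0 in the Pvalb and numbered Sst male samples. In bulk samples such as these, fewer cells of a type and less RNA per cell cannot be told apart.

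The members lie on 7 chromosomes (RefSeq, GRCm38.p6, the assembly of mm10). Of the surface receptors, Tlr5 lies at chr1:182954752-182976044, Tlr2 at chr3:83836272-83841824 and Tlr4 at chr4:66827551-66846581. Tlr1 (chr5:64924680-64933600) and Tlr6 (chr5:64953092-64970942) are neighbours, 19492 bases apart. Of the endosomal receptors, Tlr3 lies at chr8:45395665-45411075 and Tlr9 at chr9:106222598-106226876. Tlr8 (chrX:167241123-167264329) and Tlr7 (chrX:167303380-167330574) are 39051 bases apart, and Myd88 lies at chr9:119335934-119340018.

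Windows around the transcription start (250 bases before to 50 after it, RefSeq, GRCm38.p6) were available for 8 members, 10 windows in all. They were searched on both strands for GGAAGT, the core of sites for PU.1, an ETS factor that macrophages and microglia depend on, and for the NF-kB consensus. GGAAGT was present in 6 windows, those of Tlr1 (1 of its starts), Tlr2, Tlr6 (both starts), Tlr9 and Myd88, and in 23.8% of the 32851 mouse promoter windows of the same length. The NF-kB consensus was present in the windows of Tlr2 and Tlr3 and in 4.51% of all windows. A match is a description of these letters and not a site. The windows of Tlr2, Tlr3, Tlr9 and Myd88 are shown because these genes followed different patterns across the samples; capitals mark both motifs, which share no base with each other in them, and the NF-kB matches on both strands of Tlr2 overlap one another.
Tlr2, chr3:83841559-83841858, minus strand: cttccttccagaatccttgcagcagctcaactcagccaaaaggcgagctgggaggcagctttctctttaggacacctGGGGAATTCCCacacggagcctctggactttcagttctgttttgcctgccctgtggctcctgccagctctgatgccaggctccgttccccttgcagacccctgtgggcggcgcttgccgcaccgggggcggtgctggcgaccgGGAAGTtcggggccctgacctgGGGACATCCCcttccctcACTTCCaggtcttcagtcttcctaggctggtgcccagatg
Tlr3, chr8:45410331-45410630, minus strand: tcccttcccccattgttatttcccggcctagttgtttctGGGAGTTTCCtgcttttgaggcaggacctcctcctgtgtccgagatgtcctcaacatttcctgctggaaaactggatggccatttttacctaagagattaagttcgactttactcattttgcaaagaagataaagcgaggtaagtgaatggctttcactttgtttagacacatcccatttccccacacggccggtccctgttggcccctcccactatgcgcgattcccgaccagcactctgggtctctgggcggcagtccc
Tlr9, chr9:106222348-106222647, plus strand: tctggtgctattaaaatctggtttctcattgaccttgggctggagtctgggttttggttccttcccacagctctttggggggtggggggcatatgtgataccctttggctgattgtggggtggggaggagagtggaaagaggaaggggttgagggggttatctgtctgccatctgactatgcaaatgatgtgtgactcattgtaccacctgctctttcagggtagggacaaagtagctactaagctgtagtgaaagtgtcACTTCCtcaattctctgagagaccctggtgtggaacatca
Myd88, chr9:119339969-119340268, minus strand: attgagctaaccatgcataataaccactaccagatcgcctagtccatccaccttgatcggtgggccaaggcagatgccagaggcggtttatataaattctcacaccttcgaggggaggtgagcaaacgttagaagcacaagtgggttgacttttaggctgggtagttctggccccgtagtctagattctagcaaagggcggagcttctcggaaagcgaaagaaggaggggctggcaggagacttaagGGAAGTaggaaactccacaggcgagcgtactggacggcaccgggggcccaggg
The Tlr3 window held the NF-kB consensus and no GGAAGT, the windows of Tlr9 and Myd88 held GGAAGT next to the start and no NF-kB consensus, and the Tlr2 window held both.

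Endosomal receptors were the most abundant members. Tlr7 averaged 58.4 ± 25.5 FPKM (SD, n = 22), Tlr3 55.9 ± 25.3 and Tlr9 30.9 ± 12.4, which placed their means above those of 96.4%, 96.2% and 91.9% of the genes in the table. The surface receptors averaged from 6.60 ± 2.51 FPKM (Tlr6) to 12.9 ± 10.1 FPKM (Tlr2), and Myd88 averaged 10.3 ± 4.03 FPKM. These 9 genes were above 0.4 FPKM in all 24 libraries. Tlr8 was listed at 0 in 10 libraries and exceeded 0.4 FPKM in only 1, SST-F (0.659 FPKM). It did not pass the filter of a mean above 0.4 FPKM in any comparison, so the counts of members below are of 9, except where the filter was left off, which brought Tlr8 in.

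**Figure D1:**
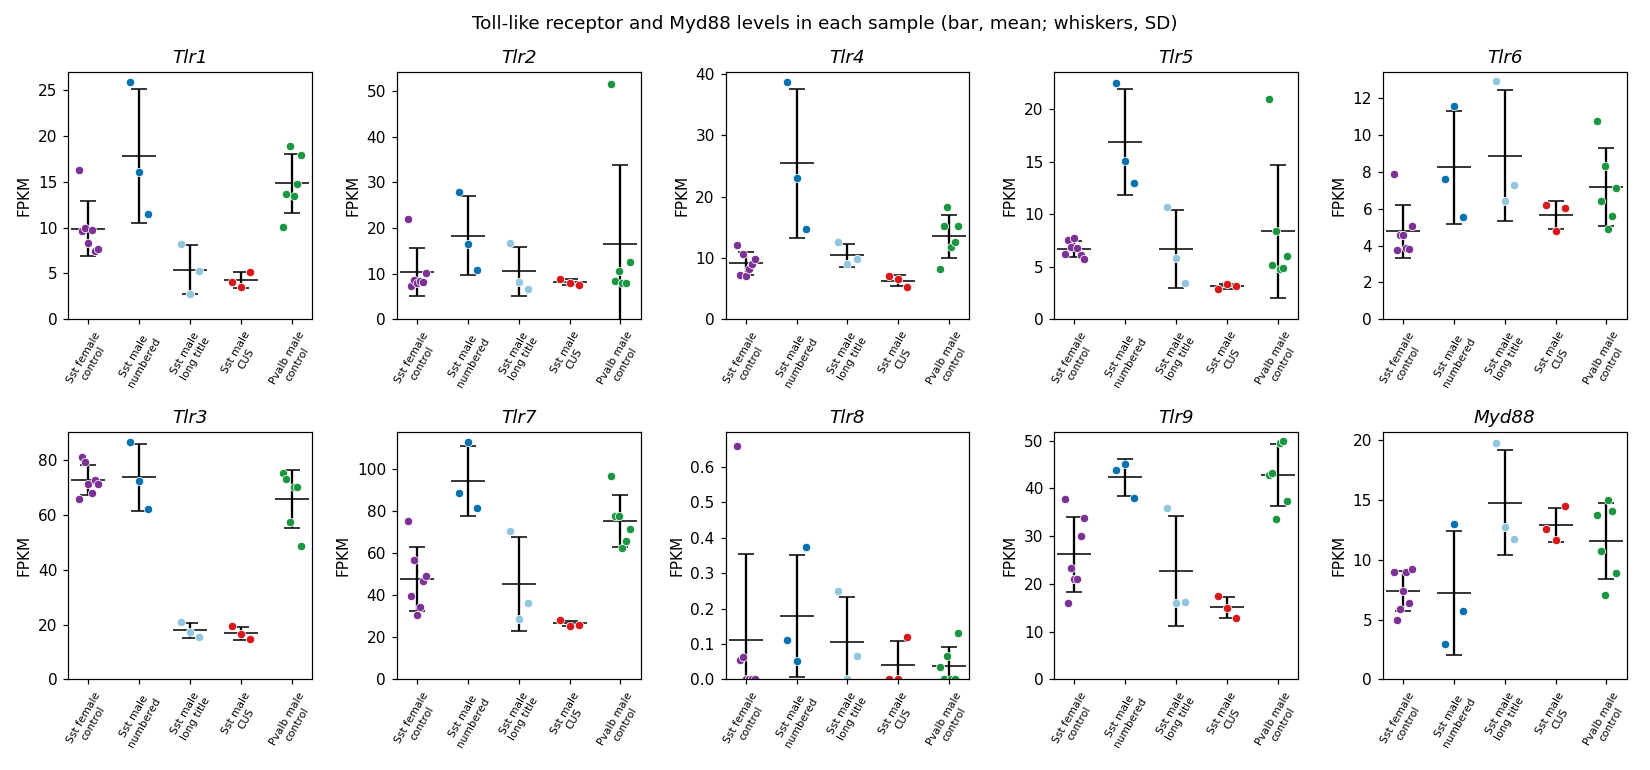
FPKM of each member (y axis, linear and from 0) in each sample of the 5 groups (x axis), with the mean as a bar and the SD as whiskers, cut off at 0. Tlr3 lies at 48.5 to 86.6 FPKM in every sample outside the long-title series and at 14.8 to 21.0 FPKM in every long-title sample, and Tlr8 does not exceed 0.659 FPKM in any.

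The order of the endosomal receptors differed between groups. In Sst females, Tlr3 was above Tlr7 in 6 of 7 samples, by 0.66 ± 0.46 (SD) on the log2(FPKM + 1) scale, and Tlr7 was above Tlr9 in 7 of 7. In numbered Sst males, Tlr7 was above Tlr3 in 3 of 3 samples (0.35 ± 0.31) and Tlr3 above Tlr9 in 3 of 3. In Pvalb males, Tlr7 and Tlr3 were not separated beyond their spread (0.19 ± 0.30, n = 6). In long-title controls, Tlr7 led by 0.97 ± 0.16 over Tlr9, and Tlr9 and Tlr3 were not separated (0.23 ± 0.46).

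Among the lower members the spread exceeded most gaps. In Sst females, Tlr2, Tlr1, Tlr4, Myd88 and Tlr5 followed in that order, each within the spread of the next, and Tlr6 stood below Tlr5 by 0.44 ± 0.39. In numbered Sst males, Tlr4 stood above Tlr2 by 0.45 ± 0.027, while Tlr2, Tlr1 and Tlr5 were not separated. In Pvalb males, Tlr1, Tlr4, Tlr2, Myd88, Tlr5 and Tlr6 were none of them separated from the next. Myd88 held the fourth place in both long-title groups, below the 3 endosomal receptors, and it was not separated from Tlr9 in the CUS samples (0.21 ± 0.32).

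Summed over the 9 receptors, the level was highest in numbered Sst males (297 ± 53.6 FPKM, n = 3) and lowest in CUS males (86.1 ± 6.83 FPKM, n = 3). Pvalb males held 244 ± 36.6 FPKM (n = 6), Sst females 188 ± 29.4 FPKM (n = 7) and long-title control males 128 ± 53.0 FPKM (n = 3). Endosomal receptors made up 64.2% to 81.2% of this sum in every sample. Tlr3 alone made up 39.6% ± 6.60 of it in Sst females, 24.9% ± 1.62 in numbered Sst males, 27.1% ± 3.87 in Pvalb males, 15% ± 3.64 in long-title controls and 19.5% ± 1.26 in CUS males.

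**Figure D2:**
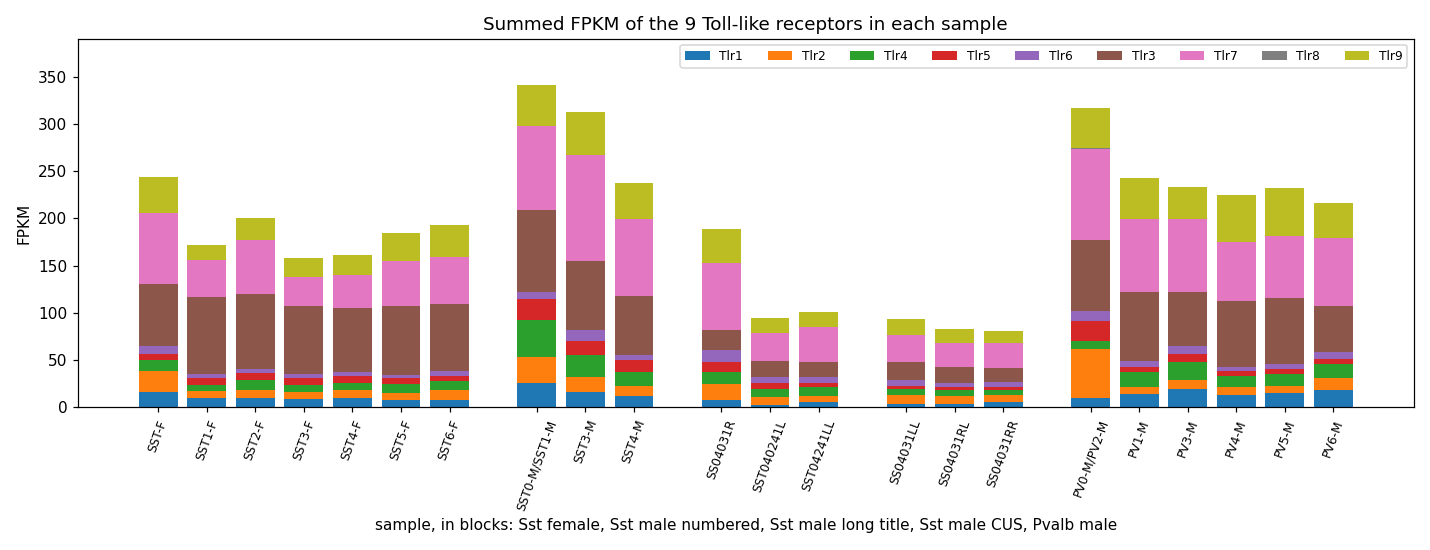
Stacked bars of the FPKM of the 9 Toll-like receptors (y axis) in each of the 22 samples (x axis), in blocks by group. Tlr3, Tlr7 and Tlr9 fill most of every bar, the sums run from 81.2 to 342 FPKM, and SS04031R stands above the other long-title samples.

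Sex was compared between the 7 Sst females and the 3 numbered Sst males, the only male controls outside the long-title series. An approximate relative depth, read from the smallest values, was 0.454 to 1.54 in the females and 1.67 to 2.46 in these males. The part of depth in the sex difference was not tested. Tlr4 and Tlr5 were lower in females, and no member was higher. For comparison, 1.66% of the 14443 genes tested were lower in females and 1.75% were higher. Of the 9 members, 8 had a negative difference, with a median of -0.76 on the log2(FPKM + 1) scale against 0.05 over all genes tested.

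Tlr4, the lipopolysaccharide receptor, ranged from 7.0 through a median of 9.05 to 12.2 FPKM in females and stood at 38.7, 23.0 and 14.8 FPKM in the numbered males. The groups did not overlap. Its difference was -1.30 ± 0.27 (SE; 0.406-fold; limma, adjusted p = 0.0300). Tlr5, the flagellin receptor, ranged from 5.71 through 6.82 to 7.71 FPKM in females and stood at 22.5, 15.1 and 12.9 FPKM in males. Here too no female reached the lowest male, and the difference was -1.18 ± 0.20 (0.441-fold; limma, adjusted p = 0.0159).

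Tlr7, a sensor of single-stranded RNA, ranged from 30.5 through 47.0 to 75.3 FPKM in females and stood at 88.6, 113 and 81.5 FPKM in males. The groups did not overlap, but the difference of -1.02 ± 0.26 missed the threshold (limma, adjusted p = 0.0520); it passed with samples scaled to a common median (adjusted p = 0.0474) and in 1 fit over all 5 groups (adjusted p = 0.0187). Tlr9 ranged from 16.0 through 23.3 to 37.8 FPKM in females and stood at 43.9, 45.2 and 37.9 FPKM in males, again without overlap (-0.72 ± 0.24, limma, adjusted p = 0.110). These 4 members had every female below every male, and none had the reverse, against 4.48% and 5.26% of all genes tested.

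Tlr1 ranged from 7.43 through 9.58 to 16.2 FPKM in females and stood at 25.8, 16.1 and 11.5 FPKM in males. Tlr2 ranged from 7.28 through 8.31 to 22 FPKM against 27.8, 16.4 and 10.8 FPKM, and Tlr6 from 3.76 through 4.57 to 7.88 FPKM against 7.60, 11.6 and 5.54 FPKM. In each of these partners for lipopeptides, SST-F was the highest female. Tlr1 (-0.76 ± 0.27), Tlr2 (-0.76 ± 0.34) and Tlr6 (-0.66 ± 0.27) overlapped between the sexes and did not pass the test (limma, adjusted p = 0.120, 0.196 and 0.163). Tlr3 differed by -0.01 (95% confidence interval, -0.34 to 0.33), with 72.8 ± 5.53 FPKM in females and 73.7 ± 12.2 FPKM in males. Myd88 stood at 2.98, 13 and 5.70 FPKM in the males, a wider range than the 5.01 to 9.20 FPKM of the females, and differed by 0.20 (interval, -0.54 to 0.93).

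Other genes of the pathway were counted by list. Of 8 accessory proteins tested, 4 were lower in females: Unc93b1, which carries the endosomal receptors out of the endoplasmic reticulum (-1.01, 68.4 ± 10.1 against 138 ± 21.5 FPKM), the co-receptor gene Cd14 (-1.10), Ly86 (-0.95) and the chaperone gene Hsp90b1 (-0.77). Tlr13, a sensor of bacterial ribosomal RNA, was lower as well (-1.30, 22.7 ± 11.6 against 54.3 ± 13 FPKM; limma, adjusted p = 0.0483), and Tlr12 (-1.17) did not pass the test. Of 8 inhibitors, 1 was lower (Nfkbib, -1.29). None of the 4 other adaptors, 16 kinases and ligases or 9 transcription factors passed.

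Microglia markers moved with these receptors. Of 13 markers, 5 were lower in females (Tyrobp, Cx3cr1, Csf1r, C1qb and Itgam), and all 13 had a negative difference, with a median over the list of -0.93. With values taken relative to the mean of these 13 markers, Tlr4 (-0.37, adjusted p = 0.298) and Tlr5 (-0.25, adjusted p = 0.516) were no longer called by limma. With that mean as a covariate neither was called, at a difference of -0.85 for Tlr4 (adjusted p = 0.392) and of -1.49 for Tlr5 (adjusted p = 0.134), the latter larger than without it. With values relative to the marker mean, 59.0% of all genes tested were called higher in females, among them Tlr3 (0.92, adjusted p = 0.0131) and Myd88 (1.13, adjusted p = 0.00942), so these 2 calls say nothing particular to the members. Endothelial markers moved the other way, with 2 of 5 higher in females (Cldn5 and Cdh5), as did pericyte markers, with 2 of 4 higher, and oligodendrocyte markers, with 1 of 6 higher (Mobp). The part of cell content in the sex difference was not tested beyond these values.

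Against the long-title males in place of the numbered ones, neither Tlr4 (-0.18) nor Tlr5 (0.12) was called by limma, and 4 others were: Tlr3 (1.97, adjusted p = 9.94e-07) and Tlr1 (0.81) were higher in females, and Myd88 (-0.90) and Tlr6 (-0.75) lower. In that comparison 22.4% of all genes tested were higher in females and 19.1% lower, so 4 of 9 members is near the share over all genes. The call of Tlr4 was lost without any 1 of SST1-F to SST6-F or without SST3-M (adjusted p up to 0.0835), with the difference between -1.34 and -1.25, whereas that of Tlr5 held without any 1 sample. Without SST-F, 6 members were called lower, as were 5.86% of all genes tested.

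**Figure D3:**
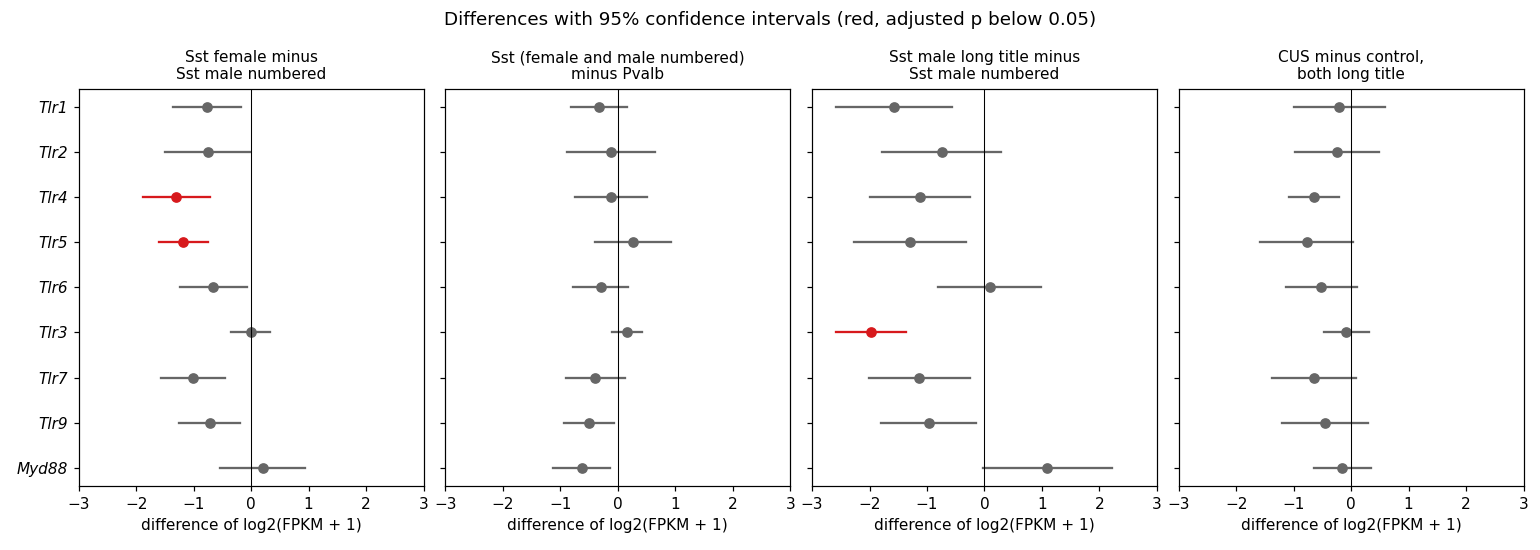
Difference of mean log2(FPKM + 1) (x axis) for the 9 members tested (y axis) in the 4 comparisons, with 95% confidence intervals from limma and red for an adjusted p below 0.05. Red marks Tlr4 and Tlr5 between the sexes and Tlr3 between the title series, and the Tlr3 interval between the sexes runs from -0.34 to 0.33.

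The driver lines were compared between the 10 unstressed Sst samples outside the long-title series, of both sexes, and the 6 Pvalb samples. None of the 9 members was called by limma, and at an unadjusted p below 0.05 there were 2, both lower in Sst samples. Of all 14483 genes tested, 3999 had an unadjusted p below 0.05, so the 2 say nothing particular to the members. By adjusted p, 5.34% of genes were lower and 4.87% higher in Sst samples. No member separated the groups without overlap, against 0.780% of genes with Sst below Pvalb and 0.663% with Sst above.

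Myd88 ranged from 7.05 through 12.2 to 15 FPKM in Pvalb samples, against 7.35 ± 2.80 FPKM in Sst samples (-0.62 ± 0.24, limma, adjusted p = 0.0941). Tlr9 ranged from 33.5 through 43.0 to 49.8 FPKM in Pvalb samples, against 31.0 ± 10.3 FPKM in Sst samples (-0.51 ± 0.21, limma, adjusted p = 0.119). Both overlapped. Tlr3 averaged 73.0 ± 7.33 FPKM in Sst and 65.8 ± 10.5 FPKM in Pvalb samples (interval of the difference, -0.10 to 0.42). Without PV1-M, PV4-M and PV5-M, the 3 libraries labelled male with high Xist, 0 members were called, Tlr5 changed sign (-0.20), and 9 genes of all tested were called.

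The number of calls turned on which Sst samples were used, for the members and for all genes. Against Sst females alone, 5 members were lower than in Pvalb males (limma): Tlr9 (-0.72, adjusted p = 0.0104), Tlr7 (-0.69), Myd88 (-0.57), Tlr1 (-0.56) and Tlr4 (-0.50, adjusted p = 0.04997). In that comparison 12.2% of all genes tested were lower in the Sst females. It included PV1-M, PV4-M and PV5-M, whose sex is uncertain, and was not repeated without them. Against numbered Sst males alone, none was called, and Tlr7 (0.32), Tlr4 (0.80), Tlr2 (0.41), Tlr1 (0.21) and Tlr6 (0.16) changed sign. Only 13 of the 14253 genes tested were called there, so the lack of a call says nothing particular to the members. Of the pathway lists, only Cd180, an accessory protein related to TLR4, was called lower in Sst samples (-0.77, 195 ± 65.1 against 318 ± 21.1 FPKM), and of the other adaptors, kinases and ligases, transcription factors and inhibitors none was called. Microglia markers had a negative difference for 13 of 13 genes, 2 of them called (C1qc and Tmem119), and 4 of 5 endothelial and 2 of 4 pericyte markers were higher in Sst samples. Neuron markers were lower in Sst samples for 2 of 6 genes (Rbfox3, -1.77; Snap25, -1.48), excitatory neuron markers for 2 of 5 (Camk2a, -2.12; Slc17a7, -1.76) and oligodendrocyte markers for 1 of 6 (Mbp, -0.80). The part of these cell types in the line differences was not tested.

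The unstressed Sst males of the 2 title series were compared because every later statement on CUS rests on one of them. Tlr3 was lower in the long-title males, and no other member was called. Of the 14230 genes tested, 2.30% were lower in the long-title males and 1.81% higher. Members with no overlap numbered 6, all lower in the long-title males, against 17.0% of genes with long-title males below and 16.4% above.

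Tlr3 stood at 86.6, 72.2 and 62.3 FPKM in the numbered males and at 21.0, 17.3 and 15.6 FPKM in the long-title ones. The difference was -1.98 ± 0.26 (0.254-fold; limma, adjusted p = 0.0142). Its call was lost without SST3-M, SST040241L or SST04241LL (adjusted p from 0.0597 to 0.0975), with the difference between -1.88 and -1.98. The 3 CUS libraries lay in the same low range, at 19.4, 16.4 and 14.8 FPKM, and the lowest value in any sample outside the long-title series, of either sex or line, was 48.5 FPKM (PV6-M).

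Tlr1 (-1.57 ± 0.44), Tlr5 (-1.30 ± 0.42), Tlr7 (-1.13 ± 0.38), Tlr4 (-1.12 ± 0.38) and Tlr9 (-0.97 ± 0.36) were below the numbered males in every long-title sample and did not pass the test. Tlr6 differed by 0.09 (interval, -0.81 to 0.99). Myd88 went the other way, at 19.8, 12.7 and 11.8 FPKM in the long-title males against 2.98, 13 and 5.70 FPKM (1.10 ± 0.48, limma, adjusted p = 0.224), and the groups overlapped. Of the accessory proteins, Ly96, which encodes the co-receptor MD-2 of TLR4, was lower (-3.21; 6.81 ± 2.33 against 88.7 ± 75.7 FPKM), and so was Cd180 (-2.38). Of 13 microglia markers tested 1 was lower, Tyrobp (-3.74, 96.6 ± 52.0 against 1248 ± 411 FPKM), and the median over the list was -0.52. The markers ran from -3.74 to 1.59 (11 negative, 2 positive), so their mean is not a steady measure across the title series. Of 6 neuron markers 1 was lower, Snap25 (-2.17). Library totals differed as well, at 681118 to 1311420 FPKM in the long-title libraries, CUS included, and 276023 to 432075 FPKM in all others. The part of these totals in the differences was not tested. The title series cannot be told apart from anything else that differed between these animals or their libraries.

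CUS was compared within the long-title libraries, 3 CUS against 3 control males. None of the 9 members was called by limma, and 1 had an unadjusted p below 0.05. Of 14186 genes tested, 0% were lower and 0.00705% (1 gene) higher after CUS, with 956 at an unadjusted p below 0.05. The 1 gene, named after its values were seen, was Slc1a2, an astrocyte glutamate transporter; it was listed at 0 in all 3 controls, which can be a failed estimate. All 9 members had a negative difference, with a median of -0.46 against 0.00 over all genes. In 4 members every CUS sample lay below every control, and in none above, against 9.39% and 9.33% of genes.

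Tlr4 stood at 7.04, 6.52 and 5.30 FPKM after CUS and at 12.6, 8.95 and 9.81 FPKM in controls (-0.65 ± 0.18, limma, adjusted p = 0.647). Tlr7 stood at 28.1, 25.6 and 26.1 FPKM after CUS and at 70.6, 28.8 and 36.6 FPKM in controls (-0.64 ± 0.31). Tlr5 (-0.77 ± 0.34) and Tlr6 (-0.52 ± 0.26) also did not overlap. In each of these 4 genes the control SS04031R was the highest sample.

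SS04031R was the highest of the 6 long-title libraries for all 9 members. It held 189 FPKM over the receptors, against 94.1 and 101 FPKM in the other 2 controls and 81.2 to 93.9 FPKM in the CUS samples, and a microglia marker sum of 8229 FPKM against 2967 to 4073 FPKM in the other 5. Without it, Tlr1 (0.10), Tlr2 (0.11), Tlr3 (0.03) and Myd88 (0.07) had a positive difference, Tlr7 stood at -0.28, Tlr9 at -0.09 and Tlr4 at -0.52, and no member was called. Microglia markers had a negative difference for 13 of 13 genes in the comparison with all samples (median, -0.62), and oligodendrocyte markers a positive one for 6 of 6. Their part in the difference was not tested beyond the values given.

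Against the numbered males in place of the long-title ones, 6 members were lower after CUS by limma (Tlr5, -2.07; Tlr3, -2.06; Tlr1, -1.78; Tlr7, -1.78; Tlr4, -1.77; Tlr9, -1.43). Of all genes tested there, 7.67% were lower after CUS. That comparison joins CUS with the title series, which cannot be told apart in it. None of the 2 other receptors, 4 other adaptors, 8 accessory proteins, 16 kinases and ligases, 9 transcription factors or 9 inhibitors tested was called between CUS and long-title controls by limma.

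The members differed in how closely they followed the microglia markers. Over the 22 samples, Pearson's r of log2(FPKM + 1) with the mean of the 13 markers was 0.86 for Tlr7 and 0.86 for Tlr9, and 0.34 for Tlr3 and 0.18 for Myd88. Over the 16 samples outside the long-title series it was 0.83 for Tlr7, 0.86 for Tlr9, -0.35 for Tlr3 and 0.42 for Myd88. These values are descriptions without a p-value, since the points share groups, normalization and libraries. Between the title series the single markers differed by -3.74 to 1.59, so their mean is not a steady measure over all 22 samples. Relative to the marker mean, Tlr7 lay between -2.95 and -1.82 in all 22 samples on the log2 scale, and Tlr3 between -4.55 and -1.28.

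**Figure D4:**
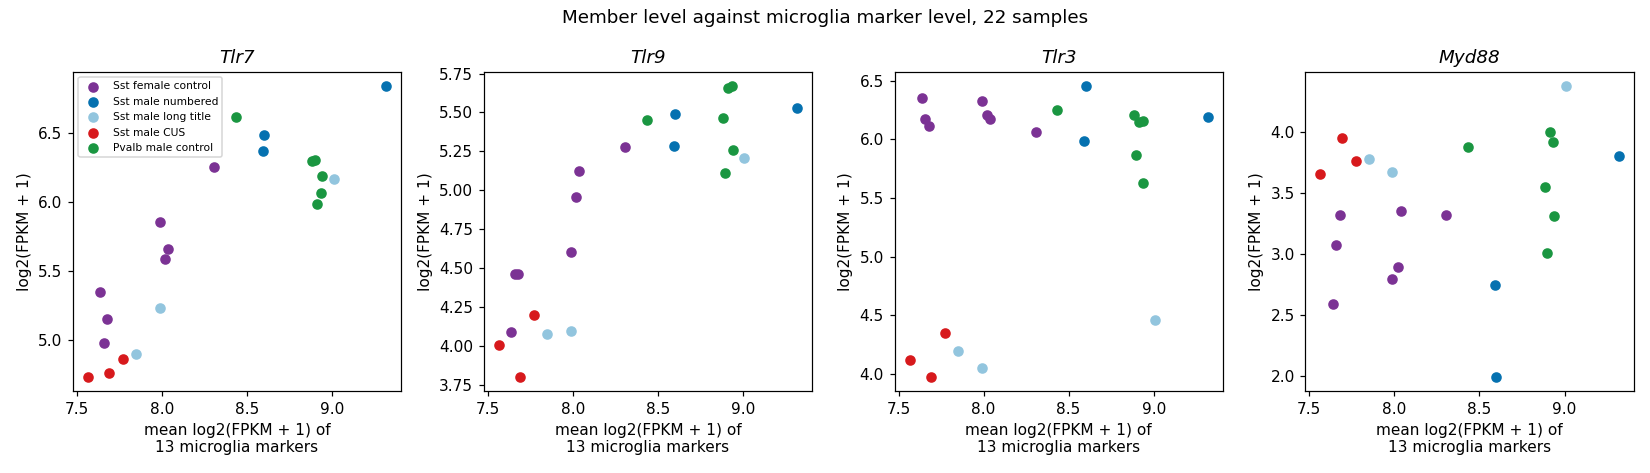
Level of Tlr7, Tlr9, Tlr3 and Myd88 (y axes, log2(FPKM + 1)) against the mean log2(FPKM + 1) of 13 microglia markers (x axes) in 22 samples, coloured by group. Tlr7 and Tlr9 rise along the x axis (r = 0.86 for both), and Tlr3 forms 1 band of long-title samples and 1 of all others.

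The genes most like each member were taken as those with the highest Pearson's r over the 22 samples, among 11936 genes above 0 in every sample. For Tlr7 these were P2ry12 (r = 0.96), a purine receptor of resting microglia, Ikzf1 (0.95) and P2ry13 (0.95), and for Tlr9 they were C1qb (0.95), a complement gene, Cd68 (0.95) and Slc7a8 (0.95). For Tlr1 they were Lacc1 (0.95), E230029C05Rik (0.94) and Fcer1g (0.94). For Tlr3 they were Nras (0.98), Zfp871 (0.98) and Mt2 (0.97), with rank correlations of 0.81, 0.65 and 0.78. For Tlr2 they were Plek (0.90), Tgif1 (0.90) and Mcl1 (0.89), with rank correlations of 0.75, 0.52 and 0.73. For Tlr4 they were Minpp1 (0.93), Fam120b (0.93) and Ulk2 (0.91). For Tlr5 they were Gtf2a1 (0.89), Rcan1 (0.88) and Cd164 (0.88), with rank correlations of 0.90, 0.89 and 0.71. For Tlr6 they were Picalm (0.92), Rassf4 (0.90) and Mtdh (0.90). For Myd88 they were Vps33a (0.89), Dnajc14 (0.88) and Ndnl2 (0.88). Tlr8, mostly at or near 0, had no gene above r = 0.82 (Ildr1, Rtf1 and Nlrp1a were highest).

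Tlr2 stood out in a few samples. It lay between 6.69 and 16.7 FPKM in 19 of the 22 samples, and stood at 51.6 FPKM in PV0-M/PV2-M, 27.8 FPKM in SST0-M/SST1-M and 22 FPKM in SST-F. The same 3 samples held the highest levels of Nfkbia, an NF-kB inhibitor that NF-kB itself induces: 144, 273 and 139 FPKM, against 17.8 to 91.3 FPKM in the other 19. Tnfaip3, a second feedback inhibitor, was highest in PV0-M/PV2-M and SST-F (82.4 and 91.2 FPKM) and stood at 24.1 FPKM in SST0-M/SST1-M, within the range of the others (11.7 to 53.1 FPKM). Both genes were named after their values were seen, and other inhibitors differed. Tnip1 stood at 6.57, 0.905 and 4.04 FPKM in the 3 samples, against 16.0 to 19.4 FPKM in the long-title ones. Nfkbie stood at 17.2, 17.5 and 18.5 FPKM in the 3 samples and was highest in SS04031R (20.6 FPKM). Pearson's r of Tlr2 with Nfkbia was 0.71 over the 22 samples and 0.90 over the 16 outside the long-title series. The rank correlations were 0.48 and 0.85. These are descriptions, and they were not repeated without those 3 samples. The relation to Nfkbia was not particular to Tlr2. Over the same 16 samples, the rank correlation with Nfkbia was 0.84 for Tlr7, 0.80 for Tlr6, 0.63 for Tlr1 and 0.63 for Tlr9. It was 0.55 for Tlr4, 0.42 for Tlr5, 0.088 for Myd88 and -0.053 for Tlr3. No relation between the sequence window of Tlr2 and these levels was tested.

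**Figure D5:**
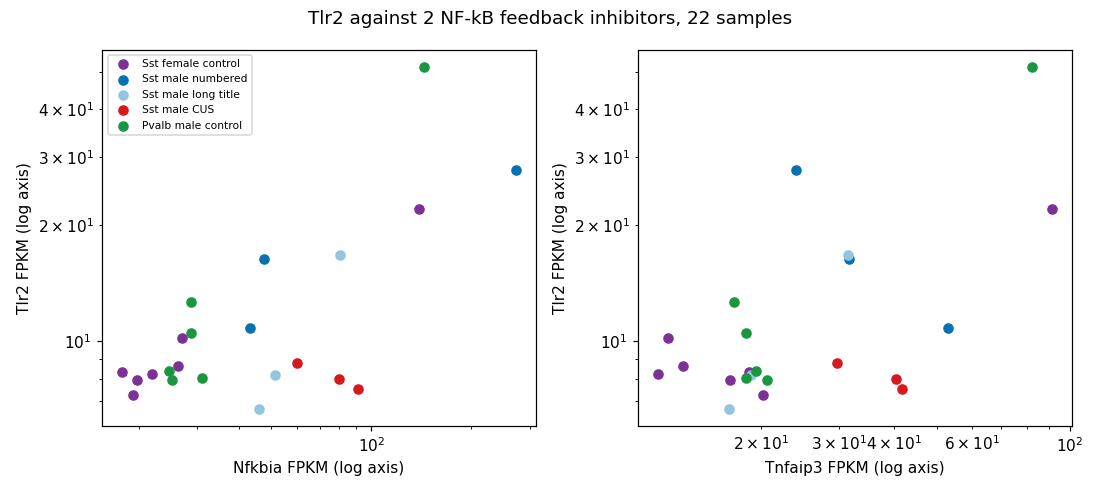
FPKM of Tlr2 (y axes, log scale) against FPKM of Nfkbia and Tnfaip3 (x axes, log scale) in 22 samples, coloured by group. The 3 samples with Tlr2 above 20 FPKM lie to the right for Nfkbia, and 2 of them for Tnfaip3.

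The remaining mouse receptors were low or moderate. Tlr11 did not exceed 0.345 FPKM in any sample. Tlr12 lay between 0.992 and 11.9 FPKM, and Tlr13 between 14.1 and 63.3 FPKM.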

How the data were processed

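RNA of sorted tdTomato-positive cells was sequenced from 24 libraries. Per the labels and the study's methods, the authors aligned reads to mm10 (TopHat2, Cufflinks and Cuffdiff in the submitters' processing notes, HISAT2 and StringTie in the methods, which also name mm9), and the deposited values are FPKM per gene symbol. The methods name ComBat and the removal of outlying samples; whether ComBat was applied to the deposited FPKM is not stated, and either step would reduce the spread within groups. Library totals were 681118 to 1311420 FPKM in the long-title libraries and 276023 to 432075 FPKM in all others. The upper quartile of genes was 9.50 to 10.7 FPKM, and 12124 to 14255 genes exceeded 0.4 FPKM. Counts were not used here; the smallest values gave an approximate relative depth of 0.454 to 2.46 (SST2-F near 1), so no counting intervals were given.

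Members and gene lists were chosen with earlier results of these data known. A marker of the microglia list is not reported here and was left out wherever the list was used. Libraries whose log2 ratio had an SD under 10% of the next closest pair (genes above 5 FPKM) were averaged, leaving 22 samples. Values were analysed as log2(FPKM + 1), so differences understate changes of low genes. limma 3.58.1 (R 4.3.3; trend and robust empirical Bayes, two-sided) was fitted to the genes whose mean in a comparison exceeded 0.4 FPKM, and p-values were adjusted across the whole table by the Benjamini-Hochberg method, with a threshold of 0.05. On simulated data with 200 changed genes, a log2 change of 2 was recovered in 85% (sex, 14443 genes), 95% (line, 14483), 71% (CUS, 14186) and 23% (title series, 14230), and a change of 1 in 34%, 51%, 24% and 0%. The genes named were all members, Tlr11 to Tlr13, at most 4 called genes per pathway list and comparison with the largest change, and the 3 genes most correlated with each member; marker genes and, after their values were seen, Nfkbia and Tnfaip3 were named as well. Neighbours in the order of levels were called not separated where the mean difference was under the SD of the paired difference. Alternatives covered the pseudocount, filter, scaling, microglia content, control set and left-out samples. Promoter windows and positions came from RefSeq (GRCm38.p6). Python 3.11.15, pandas 2.3.3 and matplotlib 3.10.9 were used.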

Additional observations from a re-analysis of the deposited data

Results flagged for a closer look

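In groups of 4 to 10 samples, a sample was singled out where its gap to the nearest other exceeded Dixon's critical value as a share of the group's range. Of 24 sets of values looked at (12 genes in the Sst females and the Pvalb males), 7 were singled out, and chance singles out about 1 in 20 of independent sets. These sets were not independent, since all 7 came from PV0-M/PV2-M or SST-F, so the count cannot be weighed against that share.

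In the Pvalb males, the averaged PV0-M/PV2-M stood apart for Tlr2 (51.6 FPKM against 7.95 to 12.6 in the other 5) and Tlr5 (21.0 FPKM against 4.78 to 8.39). The 6 border macrophage markers summed to 50.5 FPKM there, the highest of the Pvalb samples, and to 100 FPKM in SST0-M/SST1-M. In PV0-M/PV2-M, Mrc1 stood at 23.8 FPKM, Ms4a7 at 13.3, Pf4 at 6.41, Cd163 at 2.92 and Lyve1 at 2.57 FPKM. Each of these was the highest of the Pvalb samples, whereas F13a1 (1.45 FPKM) was below PV1-M (1.64 FPKM). The part of these markers in the result was not tested. In the Sst females, SST-F stood apart for Tlr1 (16.2 FPKM against 7.43 to 9.97), Tlr2 (22 FPKM against 7.28 to 10.2), Tlr6 (7.88 FPKM against 3.76 to 5.05), Tlr8 (0.659 FPKM against 0 to 0.0629) and Tlr13 (48.1 FPKM against 14.6 to 21.8). SST-F is the female library without a number in its title, and its Tnfaip3 (91.2 FPKM) and Nfkbia (139 FPKM) were the highest of the females.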

How the results depend on the processing

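Of 756 differences of single members recomputed under an alternative, 635 kept their direction and side of the threshold, 22 lost and 33 gained a call, and 66 changed sign. The cause of each change was not tested, except that leaving out samples lowers the number tested on. Depth is unknown, so a difference of low genes such as Tlr8 was not detectable. With no filter on low values, 10 members were tested, Tlr8 included.

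In the sex comparison (2 members called), the following differences of log2(FPKM + 1) changed sign or counts of members or genes called moved by over 1.5 times. No filter on low values gave 1 member called and 179 genes called. Quantile normalization gave Tlr3 0.32. Microglia markers as covariate gave 0 members called, 36 genes called, Tlr6 0.28, Tlr7 0.020 and Tlr9 0.12. Relative to microglia markers gave 8535 genes called, Tlr1 0.17, Tlr2 0.17, Tlr3 0.92, Tlr6 0.28 and Tlr9 0.21. One fit over 5 groups gave 1232 genes called. Near-identical libraries kept separate gave 5 members called and 2549 genes called. All male controls gave 0 members called, 1699 genes called, Myd88 -0.35, Tlr1 0.024 and Tlr3 0.98. Long-title male controls gave 4 members called, 6032 genes called, Myd88 -0.90, Tlr1 0.81, Tlr3 1.97, Tlr5 0.12, Tlr7 0.12 and Tlr9 0.25. Leaving out 1 sample at a time gave 1 to 6 members called, 100 to 1787 genes called, Myd88 -0.23 to 0.68 and Tlr3 -0.12 to 0.11. With the covariate Tlr4 stood at -0.85 and Tlr5 at -1.49, both without a call. The fit over 5 groups and the common median each called 3 members, Tlr7 in addition. Samples shared numbers between groups but did not deviate together (r of same-numbered samples, -0.036 to 0.028 over 3 pairs), and with a replicate block 0 members and 11 genes were called and Tlr3 stood at 0.0057, while Tlr4 (-1.54) and Tlr5 (-1.06) lost their calls at differences near those reported.

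In the line comparison (0 members called), the following differences of log2(FPKM + 1) changed sign or counts of members or genes called moved by over 1.5 times. No filter on low values gave 908 genes called. Microglia markers as covariate gave 73 genes called, Tlr1 0.13, Tlr2 0.15, Tlr4 0.64, Tlr6 0.11 and Tlr7 0.23. Relative to microglia markers gave 2 members called, 4532 genes called, Myd88 0.026, Tlr1 0.32, Tlr2 0.53, Tlr4 0.54, Tlr6 0.35, Tlr7 0.26 and Tlr9 0.14. One fit over 5 groups gave 2744 genes called. Near-identical libraries kept separate gave Tlr4 0.12. Sst males only gave 13 genes called, Tlr1 0.21, Tlr2 0.41, Tlr4 0.80, Tlr6 0.16 and Tlr7 0.32. Sst females only gave 5 members called, 3638 genes called and Tlr5 -0.091. All control Sst libraries gave Tlr3 -0.30. Without Pvalb libraries with high Xist gave 9 genes called and Tlr5 -0.20. Leaving out 1 sample at a time gave 0 to 1 members called, 554 to 2883 genes called and Tlr2 -0.25 to 0.27. Here r was -0.044 to 0.12 over 9 pairs, and with the replicate block 0 members were called.

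In the CUS comparison (0 members called), the following differences of log2(FPKM + 1) changed sign or counts of members or genes called moved by over 1.5 times. No filter on low values gave 8 genes called. Microglia markers as covariate gave 10 genes called, Myd88 0.20, Tlr1 0.34, Tlr2 0.32, Tlr3 0.11 and Tlr9 0.15. Relative to microglia markers gave Myd88 0.45, Tlr1 0.40, Tlr2 0.36, Tlr3 0.52, Tlr6 0.090 and Tlr9 0.15. One fit over 5 groups gave 3 genes called. All male controls gave Myd88 0.40. Numbered male controls gave 6 members called, 2309 genes called and Myd88 0.94. All control Sst libraries gave 6 genes called and Myd88 0.58. Leaving out 1 sample at a time gave 1 to 16 genes called, Myd88 -0.29 to 0.065, Tlr1 -0.54 to 0.098, Tlr2 -0.49 to 0.11 and Tlr3 -0.18 to 0.030.

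In the title series comparison (1 member called), the following differences of log2(FPKM + 1) changed sign or counts of members or genes called moved by over 1.5 times. No filter on low values gave 0 members called and 37 genes called. Quantile normalization gave 1110 genes called. Microglia markers as covariate gave 217 genes called. Relative to microglia markers gave 0 members called and 288 genes called. One fit over 5 groups gave 7 members called and 3608 genes called. Near-identical libraries kept separate gave 3 members called and 1769 genes called. Leaving out 1 sample at a time gave 0 to 1 members called, 54 to 1962 genes called and Tlr6 -0.18 to 0.34.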

Other observations

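Receptors and their co-receptors did not always move together. Ly96, the TLR4 co-receptor gene, ranged from 2.92 FPKM (SS04031RR) to 175 FPKM (SST0-M/SST1-M), a far wider range than the 5.30 to 38.7 FPKM of Tlr4 itself. Unc93b1, the chaperone of the endosomal receptors, was highest in SS04031R (470 FPKM) and stood at 168 to 233 FPKM in the other 5 long-title libraries, against 52.2 to 163 FPKM in all numbered and unnumbered ones, while Tlr3, Tlr7 and Tlr9 were low in most long-title libraries. These are values by sample, with no test of the contrast between genes.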
